A study of Mus musculus with 6 samples.

Results

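The cytosolic ribosomal protein genes were the 79 genes, of 32285 in the count tables, whose symbol starts with Rpl or Rps, has an optional p for the stalk proteins, and ends in a number with at most 1 letter of a, x, y or l. They comprised 46 large-subunit genes, 30 small-subunit genes and the 3 stalk genes Rplp0, Rplp1 and Rplp2. The pattern reads names alone, although the family was taken up with earlier results of these data known. All but Rpl10l, a copy without introns that is mainly active in the testis, had at least 1 UMI (unique molecular identifier, a count of captured RNA molecules). The pattern left out among others Rpsa, Fau, Rack1, Rpl36al, Rpl22l1 and Rpl7l1, which are given apart, and Rps3a1.

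Nuclei were isolated from mouse subcutaneous white fat, sorted on the DNA stain DAPI, and profiled by droplet single-nucleus RNA sequencing with capture at the 3′ end. The genotypes were GPSM1ΔTreg (3 libraries titled CKO) and the control GPSM1f/f (3 libraries titled FLOX), with 3 mice of each. Every mouse had a high-fat diet, given from 7 weeks of age and labelled as 12 weeks long, although the general protocol allows 5 to 12 weeks. By the genotype's name Gpsm1, a regulator of G-protein signalling and spindle orientation, was deleted in regulatory T cells (Treg), but the driver of the deletion, the exons removed and the sex of the mice were not given in the sources used here. Both groups carried the floxed alleles. The labels do not say that each library is 1 mouse, so p-values measure the spread between libraries.

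Ribosomal proteins join ribosomal RNA in the nucleolus to build the small subunit, which reads the messenger RNA, and the large subunit, which joins amino acids. Their mRNAs are long-lived and abundant in the cytoplasm, and their translation is tuned by the kinase mTORC1 through a run of pyrimidines at the very start of the mRNA, the TOP motif. Preparations of nuclei hold newly made RNA and cytoplasmic RNA that adheres to them. White fat holds large lipid-storing adipocytes beside their progenitors, vessels and immune cells.

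The start-site regions of 6 genes that rose in both of the main fat classes (below) are shown. Those of 2 paralogs with restricted or divergent expression, Rps27l and Rpl39l, stand beside them. All 8 hold a pyrimidine run near the start. Each line holds 40 bases before and 20 bases from the start, 5′ to 3′ on the gene's strand, from the RefSeq table of build GRCm38.p6. Capitals mark a C followed by C or T letters, at least 5 letters in all, where the whole run lies within 20 bases of the start. A run that begins farther upstream stays in lower case, also where it reaches into those 20 bases. Capitals also mark CGGAAG on either strand, the letters bound by ETS family factors. Within these lines CGGAAG is found in Rps7 and Rps27l alone.
Rpl12 (chr2:32961672-32961731, plus strand): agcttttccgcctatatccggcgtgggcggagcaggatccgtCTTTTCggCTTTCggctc
Rpl13a (chr7:45128726-45128785, minus strand): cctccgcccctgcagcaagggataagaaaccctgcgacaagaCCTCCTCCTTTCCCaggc
Rpl18 (chr7:45718031-45718090, plus strand): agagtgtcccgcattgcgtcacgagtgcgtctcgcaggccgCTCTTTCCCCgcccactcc
Rpl27a (chr7:109519155-109519214, plus strand): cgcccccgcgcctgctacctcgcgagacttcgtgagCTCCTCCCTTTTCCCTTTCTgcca
Rplp0 (chr5:115559427-115559486, plus strand): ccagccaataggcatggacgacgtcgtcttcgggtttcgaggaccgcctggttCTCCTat
Rps7 (chr12:28635934-28635993, minus strand): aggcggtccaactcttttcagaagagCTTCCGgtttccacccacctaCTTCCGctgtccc
Rps27l (chr9:66946046-66946105, plus strand): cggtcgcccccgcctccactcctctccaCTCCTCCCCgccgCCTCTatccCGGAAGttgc
Rpl39l (chr16:10170188-10170247, plus strand): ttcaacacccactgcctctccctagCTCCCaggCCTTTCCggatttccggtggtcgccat

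Of the 79 genes, 59 had an entry in that table, with 71 start sites. The pyrimidine run was near 51 of the 71 starts (71.8%), against 45.9% of all 32851 promoters. CGGAAG, read on both strands over 300 bases, was in 43 of the 71 (60.6%), against 16.9% of all promoters. The TATA letters TATAAA, on both strands, were in 6 (8.45%), against 13.6%. A start at a C was annotated for 28.2% of the member starts, against 16.3% of all. These are matches of letters and were not tested for use.

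The deposited barcodes held 39130112, 38857282 and 41951373 UMIs in CKO libraries 1 to 3, against 55342903, 55250025 and 45007561 UMIs in FLOX libraries 1 to 3. After removal of low-quality barcodes and likely doublets 56226 of 65162 nuclei were kept, with 831063 ribosomal protein UMIs, and any 2 libraries shared 24 to 44 barcodes. Clustering without the 79 genes gave 33 clusters, of which 11, with 6336 nuclei, stayed unnamed; 9 marker-defined classes had enough nuclei in every library for sums per library. The B cell-like class made up 38.4%, 12.3% and 19.1% of the nuclei of CKO libraries 1 to 3, against 2.02%, 1.03% and 5.05% of FLOX libraries 1 to 3, with no overlap. Of kept UMIs, 0.257 to 0.485% were mitochondrial in CKO libraries and 0.191 to 0.397% in FLOX libraries. Gpsm1 itself was at 38.3, 38.4 and 33.8 CPM (UMIs of a gene per 1000000 UMIs of the same library and class) over all CKO nuclei and at 27.1, 30.9 and 24.0 CPM over all FLOX nuclei. In T cell-like nuclei it was at 22.0, 21.8 and 20.1 CPM in CKO libraries and 41.8, 46.0 and 18.6 CPM in FLOX libraries, from 96 and 26 UMIs. Which exons were removed is not known here, so these 3′ counts do not check the genotype.

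Among the 9 classes the summed level of the 79 genes was lowest in adipocyte-like nuclei and highest in lymphocyte-like nuclei. Over all 6 libraries it averaged 1489 ± 365 CPM in adipocyte-like nuclei, 4040 ± 864 in ASPC-like nuclei (adipose stem and progenitor cells), 4492 ± 707 in macrophage-like and 4673 ± 1270 in mural-like nuclei (SD, n = 6 libraries). It averaged 7565 ± 2276 CPM in endothelial-like, 8962 ± 1950 in dendritic-like, 9791 ± 2138 in B cell-like, 9963 ± 2115 in T cell-like and 10700 ± 1841 CPM in NK cell-like nuclei (SD, n = 6). The order ASPC-like above adipocyte-like, macrophage-like above ASPC-like and endothelial-like above mural-like held in 6 of 6 libraries. The neighbours mural-like and macrophage-like, and T cell-like and B cell-like, kept their order in only 3 of 6 libraries and did not differ beyond their spread. The NK cell-like level was 7.19 times the adipocyte-like level.

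Counted per nucleus the order was another, with dendritic-like nuclei highest and mural-like nuclei lowest. A dendritic-like nucleus held 29.4 ± 6.89 ribosomal protein UMIs on average, an endothelial-like nucleus 17.3 ± 6.30, a T cell-like nucleus 17.2 ± 4.29, a B cell-like nucleus 14.8 ± 2.13 and a mural-like nucleus 11.9 ± 3.07 (SD, n = 6). An adipocyte-like nucleus held 14.2 ± 1.98, an ASPC-like nucleus 12.4 ± 2.22, a macrophage-like nucleus 13.5 ± 1.37 and an NK cell-like nucleus 18.8 ± 4.64 (SD, n = 6). Median UMIs per nucleus were 5236 to 8614 in adipocyte-like CKO libraries and 9412 to 10169 in the FLOX libraries, against 1203 to 1660 in NK cell-like CKO libraries and 1245 to 1741 in the FLOX libraries.

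**Figure D1:**
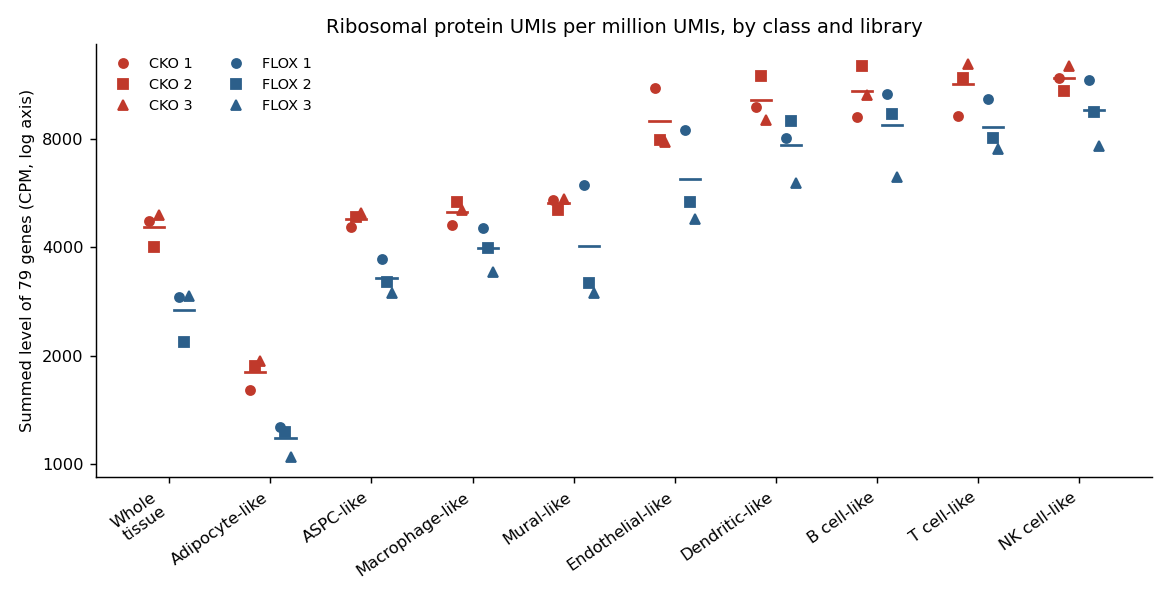
Summed level of the 79 ribosomal protein genes (CPM, log axis) in the whole tissue and 9 marker-defined classes; each point is 1 library, red CKO and blue FLOX, and bars are group means. Adipocyte-like nuclei are lowest in every library, and the CKO points lie wholly above the FLOX points in the whole tissue and the adipocyte-, ASPC-, macrophage- and dendritic-like classes. In the dendritic-like class the groups nearly meet, at 8987 CPM in CKO library 3 (29 nuclei) and 8979 CPM in FLOX library 2 (26 nuclei).

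Members shared the low level of adipocyte-like nuclei. All 76 genes of at least 10 CPM over the tissue were lowest in adipocyte-like nuclei, and 68 of them were above the adipocyte-like level in each of the other 8 classes and 6 libraries. Relative to the summed level, the range of a gene over the classes was 0.59 on the log2 scale at the median. Among the 5 narrowest ranges were those of Rps20 (0.23), Rpl28 (0.25), Rpl30 (0.28) and Rpl39 (0.29), so these genes kept a nearly fixed share of the ribosomal protein UMIs.

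Rps27l, a p53-responsive paralog of Rps27, had the widest range (1.80). It took 0.510% of the ribosomal protein UMIs in adipocyte-like nuclei, against 0.132% in B cell-like nuclei. Rps27 itself, which codes for a zinc-finger protein of the small subunit, took 1.53% in adipocyte-like nuclei and 1.98% in B cell-like nuclei. Rpl10a, a protein of the L1 stalk, ranged over 1.48, with 1.97% in macrophage-like nuclei and 0.650% in endothelial-like nuclei. Rps28 ranged over 1.32, with 1.61% in endothelial-like nuclei and 0.674% in NK cell-like nuclei. The NK cell-like value came from 38 UMIs, and its share ran from 0.157 to 0.921% over the libraries. Rps16, near the decoding site, took 2.70% in ASPC-like nuclei and 1.07% in adipocyte-like nuclei. Rpl35, at the exit of the peptide tunnel, and Rpl36 also stood among the widest 5, with ranges of 1.27 and 1.22. In dendritic-like nuclei Rpl35 had only 16 UMIs, with 0 CPM in FLOX libraries 2 and 3. Rps28 and Rpl10a overlap genes on the other strand (Kank3 and CT025652.2), and whether counting used the strand was not given in the sources used here.

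Rpl3l, the striated-muscle paralog of the peptidyl transferase protein Rpl3, gave 196 UMIs in all kept nuclei. Of these, 72 (36.7%) came from the 126 nuclei of a skeletal muscle-like cluster, which lay outside the 9 classes because CKO library 2 and FLOX library 3 held 71 and 54 of its nuclei. There Rpl3l was at 139 CPM in CKO library 2 and 177 CPM in FLOX library 3. Adipocyte-like nuclei gave 86 UMIs, at 0.697, 0.736 and 0.736 CPM in CKO libraries and 0.825, 0.607 and 0.424 CPM in FLOX libraries. The unnamed cluster 12 gave 13, and each of the other 8 classes at most 8. Rpl39l, a paralog of the exit-tunnel protein Rpl39 known from testis, gave 308 UMIs, of which 205 were in adipocyte-like and 52 in ASPC-like nuclei. Its median over libraries was 1.14 CPM in adipocyte-like nuclei, 1.23 in ASPC-like nuclei and, from 6 UMIs, 2.94 in mural-like nuclei.

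**Figure D2:**
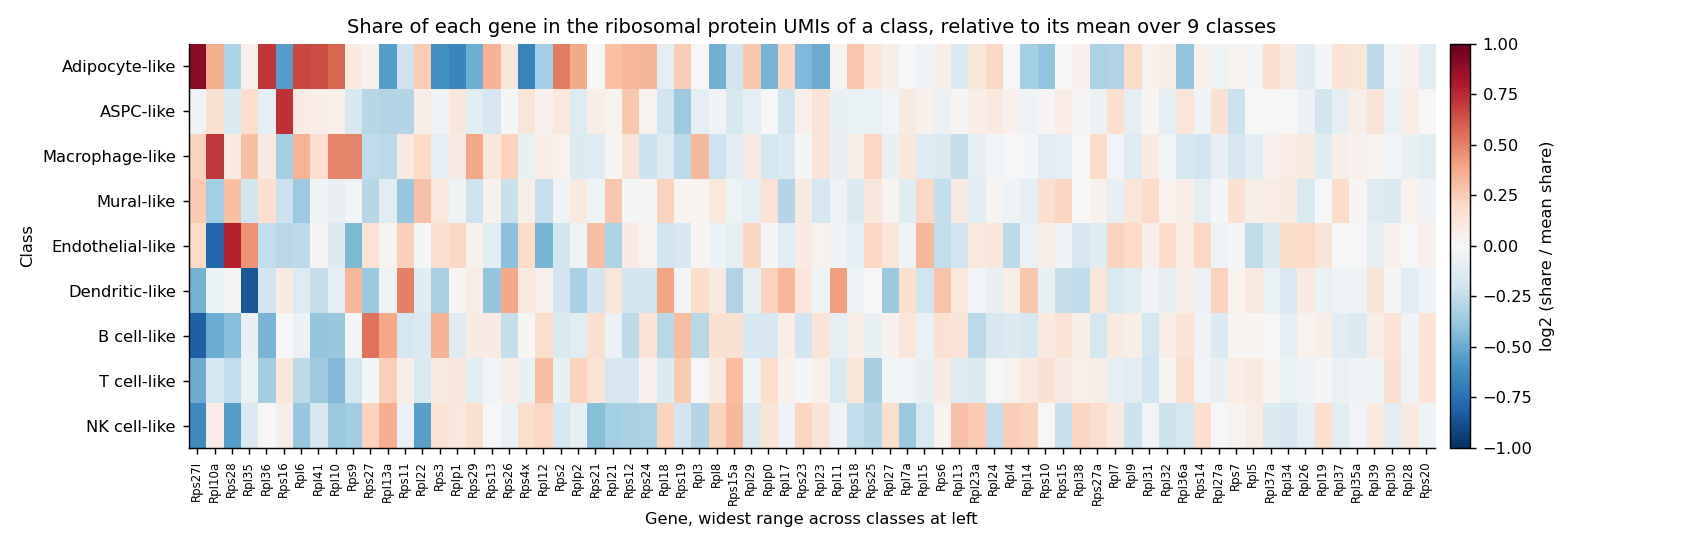
Share of 72 of the 76 genes of at least 10 CPM in the ribosomal protein UMIs of a class, as log2 of the share over its mean over 9 classes; genes run from the widest range at left to the narrowest at right. Rps27l is high in the adipocyte-like row, Rps28 in the endothelial-like row and Rpl10a in the macrophage-like row, and the right-hand genes are nearly even.

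Across the 54 class-by-library sums, the genes outside the list whose log2(CPM + 1) followed the summed level most closely, of 10439 ranked, were Fau (Pearson r = 0.977), Rps3a1 (0.971), Eef1a1 (0.960), Rpsa (0.958), Tpt1 (0.952) and Rack1 (0.938). Next came H2-T23 (0.923), Tmsb4x (0.920), Sp100 (0.913) and Psmb8 (0.910). The members themselves had a median r of 0.949, and 62 of them were among the first 100 genes, while Rps27l had the lowest value, 0.303. The sums share libraries and depth, so these coefficients describe the pattern and are given without p-values.

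In adipocyte-like nuclei the ribosomal protein genes were higher in CKO than in FLOX libraries as a share of UMIs, gene by gene and in sum. The summed level was 1601, 1866 and 1930 CPM in CKO libraries 1 to 3, against 1266, 1226 and 1044 CPM in FLOX libraries 1 to 3, a ratio of 1.53 with no overlap. Counted per nucleus the groups overlapped. A nucleus held 17.4, 12.65 and 14.4 ribosomal protein UMIs in CKO libraries (mean 14.8) and 15.4, 13.5 and 12.0 in FLOX libraries (mean 13.6). Of 78 members tested, 26 rose and none fell by edgeR's quasi-likelihood test with Benjamini-Hochberg adjustment at 0.05, while 1.19% of all 15689 genes rose and 1.52% fell. The median log2 change was 0.55 for the members and 0.01 for all genes tested, and 77 of 78 members were higher in CKO. In 71 members all CKO libraries lay above all FLOX libraries, against 21.6% of all genes. In the 26 that rose, the change ran from 0.40 to 0.90 on the log2 scale.

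The largest rise was that of Rpl13a, a large-subunit protein that also joins the interferon-gamma-activated inhibitor of translation complex. It was at 27.6, 30.9 and 32.3 CPM in CKO libraries and 16.8, 15.0 and 14.5 CPM in FLOX libraries (log2 change 0.90 ± 0.10 SE, adjusted p = 0.0128, edgeR). The lowest CKO value was 27.6 and the highest FLOX value 16.8. Rps27 was at 25.2, 31.1 and 35.5 CPM in CKO libraries and 17.4, 17.6 and 13.2 CPM in FLOX libraries (0.85 ± 0.16). Rps16, near the decoding site, was at 20.3, 22.7 and 20.98 CPM in CKO libraries and 13.8, 10.96 and 9.60 CPM in FLOX libraries (0.82 ± 0.14). Neither gene's groups overlapped, and all 3 FLOX libraries were low for both. Also among the 12 largest rises were those of Rpl8 (0.78), Rpl12 (0.73), Rpl10a (0.71), Rps21 (0.71), Rps23 (0.69), Rps6 (0.67) and Rpl7a (0.66).

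By role, the 3 genes of the tRNA-facing and peptidyl transferase region, Rpl3, Rpl8 and Rpl10, all rose in adipocyte-like nuclei. Of the 7 genes at the mRNA entry and decoding site, 4 rose: Rps15, Rps16, Rps18 and Rps23. Over all members 26 of 78 rose, and no role group was tested against that share. Rps6, the substrate of the S6 kinases downstream of mTORC1, was at 20.5, 22.8 and 21.5 CPM in CKO libraries and 12.95, 13.39 and 12.33 CPM in FLOX libraries, with no overlap (adjusted p = 0.0211, edgeR). Of 9 genes listed here for Diamond-Blackfan anaemia, an inherited marrow failure, Rps7, Rps19 and Rps24 rose. The list was not meant to hold every gene of that disease. Of 3 stalk genes, which recruit elongation factors, Rplp0 rose, and Rplp1 was at 22.0, 33.1 and 36.0 CPM in CKO libraries and 21.3, 16.4 and 17.5 CPM in FLOX libraries without passing. Of 9 exit-tunnel genes, Rpl17 rose. Rpl5 and Rpl11, which with 5S RNA hold the p53 regulator MDM2, did not pass (0.45 and 0.59). Rps27a, made as a fusion with ubiquitin, had a change of 0.71 and an adjusted p of 0.0540 (edgeR). Rps27l stood at 7.95, 7.92 and 6.38 CPM in CKO libraries and 7.61, 7.83 and 5.60 CPM in FLOX libraries (log2 change 0.00), groups that overlap.

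Genes of both subunits rose: 12 of 48 tested large-subunit genes (stalk included) and 14 of 30 small-subunit genes rose, with summed levels 1.51 and 1.54 times as high in CKO as in FLOX.

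**Figure D3:**
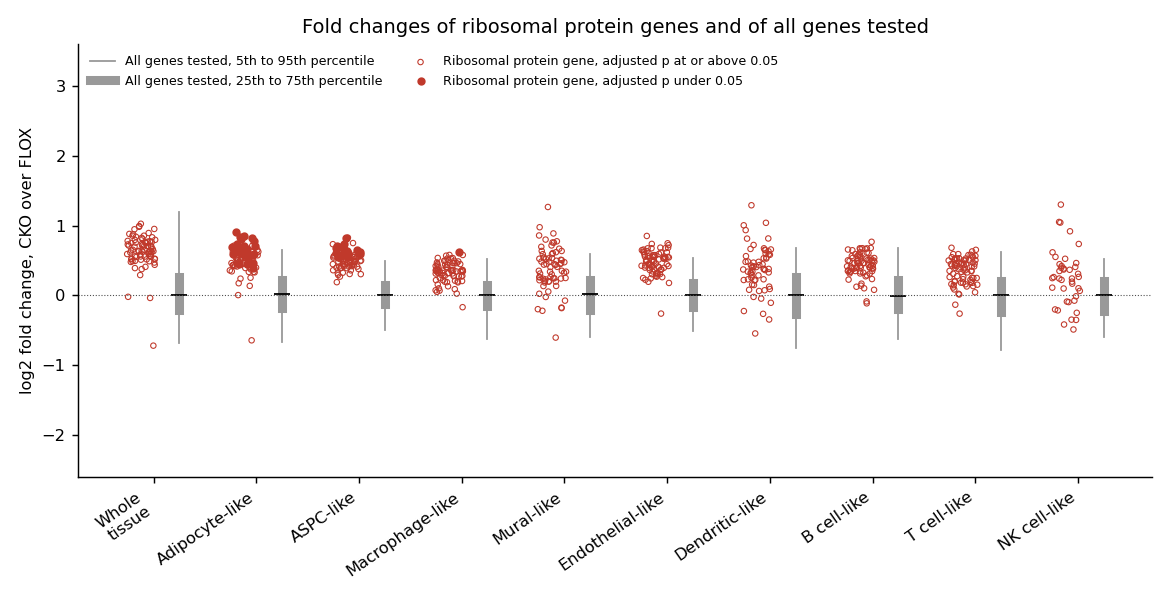
Log2 fold change, CKO over FLOX, of each ribosomal protein gene (circles, filled where the adjusted p is under 0.05) beside the spread of all genes tested (thick bar 25th to 75th percentile, thin line 5th to 95th). Most circles lie above 0 in every class, and filled circles are found in the adipocyte-, ASPC- and macrophage-like classes.

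Several measured facts stand beside the adipocyte-like result. Of CKO adipocyte-like nuclei, 50.7%, 61.7% and 59.7% were in cluster 2 (median 4991 UMIs), against 18.0%, 19.6% and 33.2% of FLOX adipocyte-like nuclei, and the FLOX nuclei were mostly in clusters 3, 4 and 16 (median 11849, 7004 and 13700 UMIs). Within each of the 4 clusters alone the summed level did not overlap between the groups, and 0, 1, 0 and 0 members rose in clusters 2, 3, 4 and 16 (Rpl13a in cluster 3; 55, 42, 20 and 37 at unadjusted p under 0.05, edgeR), while 0.0322%, 0.113%, 0.125% and 0.0382% of all genes tested there rose. B-cell markers without Ebf1, which fat cells also express, summed to 68.8, 10.5 and 36.7 CPM in CKO and 4.31, 1.63 and 15.3 CPM in FLOX adipocyte-like nuclei (7 genes, at least 6 detected in each library). CKO libraries 1 and 3 were above every FLOX library in these markers, and CKO library 2 was below FLOX library 3. Mitochondrial UMIs were 0.0549 to 0.0926% in CKO and 0.0528 to 0.144% in FLOX adipocyte-like nuclei. The part of the markers in the result was not tested.

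Cluster 12 (median 1245 UMIs) carried all 10 adipocyte markers at 2 or more times the mean of the other clusters, but it also carried 3 of 7 mast cell markers (Cpa3, Mcpt4 and Tpsb2) and stayed unnamed for that. It held 32.1% of the nuclei of FLOX library 3, against 0.234 to 2.45% of CKO libraries and 0.417 and 0.688% of the other FLOX libraries, and in FLOX library 3 its summed level was 7643 CPM. Counted in with the adipocyte-like class (an alternative chosen after seeing the data), the sums became 1616, 1871 and 2130 CPM in CKO libraries and 1322, 1238 and 2410 CPM in FLOX libraries, which overlap, and 0 of 78 members rose. The count also fell to 0 with a trend over gene span removed, with classes taken from marker scores, or without CKO library 2, CKO library 3, FLOX library 1 or FLOX library 2, to 4 without FLOX library 3, and stood at 36 without CKO library 1. The log2 ratio of the summed level was 0.18 with cluster 12 counted in, 0.41 with classes from marker scores, and 0.53 to 0.69 with 1 library left out.

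In ASPC-like nuclei the ribosomal protein genes were also higher in CKO than in FLOX libraries. The summed level was 4542, 4837 and 4986 CPM in CKO libraries 1 to 3, against 3699, 3195 and 2983 CPM in FLOX libraries 1 to 3, a ratio of 1.45 with no overlap. Per nucleus there were 14.4, 13.4 and 15.1 ribosomal protein UMIs in CKO and 11.8, 9.61 and 10.4 in FLOX libraries, also without overlap. Of 76 members tested, 15 rose and none fell (edgeR), while 0.21% of 13779 genes rose and 0.21% fell, so members were 15 of the 29 genes that rose. The median log2 change was 0.51, all 76 were higher, and in 68 all CKO libraries lay above all FLOX libraries, against 8.58% of all genes.

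Of the 15, Rpl8, which faces the tRNA, had the largest change, at 75.1, 66.2 and 79.9 CPM in CKO libraries and 46.4, 42.3 and 34.7 CPM in FLOX libraries (0.82 ± 0.12). Rpl13, of the large subunit, was at 122, 126 and 125 CPM in CKO libraries and 78.0, 78.4 and 66.1 CPM in FLOX libraries (0.73 ± 0.09, adjusted p = 0.0230, edgeR), with all CKO values close to one another. Rps7 was at 67.4, 66.8 and 67.3 CPM in CKO libraries and 44.5, 42.5 and 34.9 CPM in FLOX libraries (0.70 ± 0.11). None of these groups overlapped. Others that rose were Rplp0 (0.69), Rpl12 (0.65), Rpl27a (0.63), Rpl13a (0.63), Rpl9 (0.61), Rps20 (0.60), Rps27a (0.59), Rpl18 (0.59) and Rps9 (0.56).

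By role, 1 of 3 stalk genes (Rplp0), 1 of 7 decoding-site genes (Rps9), 1 of 3 tRNA-facing genes (Rpl8), 1 of the 9 listed Diamond-Blackfan genes (Rps7) and the ubiquitin fusion Rps27a rose. Over all members 15 of 76 rose, and no role group was tested against that share. None of 9 exit-tunnel genes passed, and Rps6 had 0.56 (adjusted p = 0.0693, edgeR). B-cell markers without Ebf1 summed to 126, 19.5 and 61.6 CPM in CKO and 8.78, 7.76 and 44.4 CPM in FLOX ASPC-like nuclei, and their part was not tested. Mitochondrial UMIs were 0.233 to 0.429% in CKO and 0.372 to 0.529% in FLOX ASPC-like nuclei. All 13 mitochondrially encoded mRNAs had lower values in CKO (median log2 change -0.38, none passed), and their part was not tested either. Within cluster 7 alone Rpl12, Rpl27a and Rpl13 rose, and within cluster 9 alone Rpl13 and Rpl8 rose, with 0.0501% and 0.0783% of all genes. Leaving out 1 library left 2 calls without CKO 1, 5 without CKO 2, 0 without CKO 3, 12 without FLOX 1, 0 without FLOX 2 and 1 without FLOX 3.

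Rpl8, Rpl12, Rpl13a, Rpl18, Rpl27a, Rplp0, Rps7 and Rps20 were among the 11 genes that rose in both classes, which made up 42.3% of the adipocyte-like and 73.3% of the ASPC-like list. The classes share their 6 libraries. A test of the difference in change between the classes (edgeR interaction with library as a term) called none of 77 members (6 at unadjusted p under 0.05, no DESeq2 test run), against 0.697% of all genes larger and 0.55% smaller in adipocyte-like nuclei. Rpl12 and Rpl18 overlap genes on the other strand (Lrsam1 and Sphk2).

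**Figure D4:**
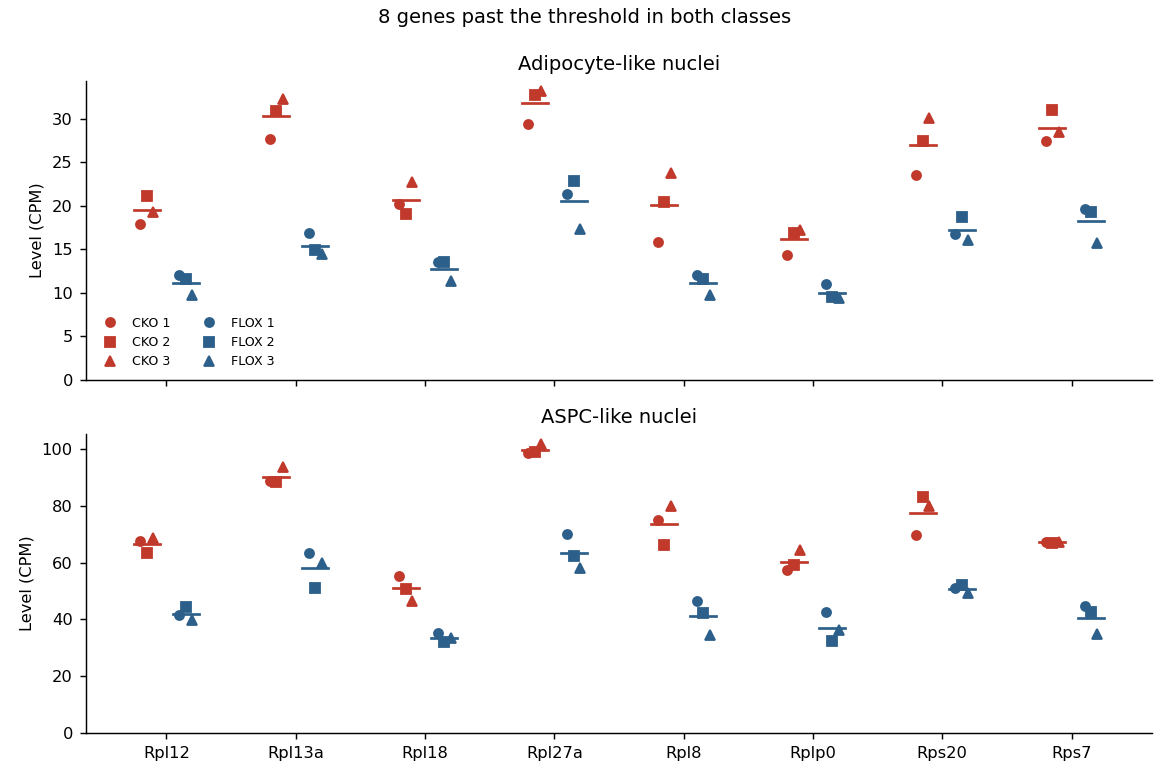
Level (CPM) of 8 of the 11 genes past the threshold in both classes, per library, in adipocyte-like (top) and ASPC-like nuclei (bottom); points are libraries and bars group means. For each gene all 3 CKO points lie above all 3 FLOX points in both panels.

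In macrophage-like nuclei the summed level was 4621, 5342 and 5072 CPM in CKO libraries and 4523, 3981 and 3414 CPM in FLOX libraries, a ratio of 1.26 without overlap but with CKO library 1 close to FLOX library 1. Per nucleus the groups overlapped (15.2, 13.7 and 14.0 ribosomal protein UMIs in CKO, 14.4, 11.6 and 12.1 in FLOX libraries). The class was made up differently: cluster 24 (median 3435 UMIs) held 10.1%, 20.8% and 11.5% of its CKO nuclei, against 37.7%, 32.5% and 31.7% of its FLOX nuclei, and cluster 21 (median 2375 UMIs) held most of the rest. Within cluster 21 the groups overlapped (4038, 4811 and 4701 CPM in CKO libraries, 4220, 3400 and 2869 CPM in FLOX libraries), and within cluster 24 they did not (4727, 5567 and 5362 CPM in CKO libraries, 4525, 4530 and 3770 CPM in FLOX libraries). Only Rpl13a rose of 76 tested (edgeR), against 0.328% of 12511 genes that rose and 0.655% that fell. It was at 96.8, 98.8 and 108 CPM in CKO libraries and 73.6, 63.6 and 61.4 CPM in FLOX libraries (0.62 ± 0.10, adjusted p = 0.0264), and 48 members had an unadjusted p under 0.05. Without CKO library 2 the call stayed at 1 and without any other library it fell to 0. Within clusters 21 and 24 alone no member passed edgeR's test (34 and 25 at unadjusted p under 0.05), while 0% and 0.0398% of all genes rose. In 36 members all CKO libraries lay above all FLOX libraries, against 8.38% of all genes. B-cell markers without Ebf1 summed to 627, 323 and 609 CPM in CKO and 268, 273 and 330 CPM in FLOX macrophage-like nuclei, and their part was not tested.

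Rpl10a differed in its change between adipocyte-like and macrophage-like nuclei. In adipocyte-like nuclei it was at 26.4, 26.9 and 28.9 CPM in CKO libraries and 16.04, 17.47 and 14.21 CPM in FLOX libraries. In macrophage-like nuclei it was at 72.2, 92.7 and 68.5 CPM in CKO libraries and 99.5, 92.4 and 72.2 CPM in FLOX libraries, with the groups overlapping. The shift between macrophage-like clusters 21 and 24 stands beside these values, and its part was not tested. The difference of the changes was 0.94 ± 0.15 on the log2 scale (edgeR interaction, adjusted p = 0.0229), the only one called of 77 members, against 0.654% of 16370 genes larger and 0.434% smaller in adipocyte-like nuclei. The call was also made without the replicate 2 pair of libraries and not without the replicate 1 or 3 pair. Of the 77 members, 73 had a larger change in adipocyte-like nuclei, and 27 had an unadjusted p under 0.05 (edgeR interaction). The median difference was 0.25 for the members and 0.10 for all genes.

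In the other 6 classes no member passed by edgeR's quasi-likelihood test. By B cell-like, T cell-like, endothelial-like, dendritic-like, mural-like and NK cell-like class, 37, 27, 24, 5, 4 and 4 members had an unadjusted p under 0.05, and DESeq2 called 0 in each; the median log2 change was 0.45, 0.40, 0.49, 0.38, 0.42 and 0.25. In the same order, 0.151%, 1.18%, 0.0763%, 0%, 0% and 0.108% of all genes rose and 0.0538%, 3.13%, 0.0286%, 0%, 0% and 0% fell. All CKO libraries lay above all FLOX libraries in 9 of 76, 10 of 75, 11 of 76, 11 of 63, 8 of 70 and 5 of 41 members tested. The shares of all genes were 8.01%, 9.59%, 7.71%, 7.52%, 4.88% and 6.5%. The summed level overlapped in the B cell-like class (9204, 12717 and 10560 CPM in CKO libraries, 10626, 9384 and 6256 CPM in FLOX libraries) and in the T cell-like class (9265, 11750 and 12917 CPM in CKO libraries, 10322, 8034 and 7491 CPM in FLOX libraries). FLOX library 1 stood high and FLOX library 3 low: FLOX library 3 was lowest of the 6 in 9 of 9 classes. In endothelial-like nuclei the sums were 11064, 7941 and 7815 CPM in CKO libraries and 8445, 5348 and 4779 CPM in FLOX libraries. Without FLOX library 1 there were 23 calls among the members, with the share of all genes not given for that fit.

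The members named next did not pass in any of these classes, and most changes were above 0. In B cell-like nuclei the 5 highest log2 changes included Rps27a (0.68), Rpl35a (0.68), Rps23 (0.67) and Rps3 (0.67), and the lowest were Rps21 (-0.11) and Rpl35 (-0.09). In T cell-like nuclei Rpl32 (0.68), Rps3 (0.63) and Rpl11 (0.59) were among the 5 highest, and Rpl14 (-0.26) and Rps26 (-0.13) lowest. In endothelial-like nuclei Rpl12 (0.75), Rps24 (0.74), Rpl13a (0.72) and Rpl10 (0.68) were among the 5 highest, and Rps27l (-0.26) was the only member below 0. The extremes were Rpl17 (1.29) and Rpl41 (-0.54) in dendritic-like nuclei and Rps9 (1.30) and Rps13 (-0.49) in NK cell-like nuclei. In mural-like nuclei Rps6 (0.89) was among the 5 highest and Rps26 (-0.22) among the 5 lowest.

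Over the whole tissue the summed level was 4722, 4009 and 4897 CPM in CKO libraries and 2914, 2180 and 2928 CPM in FLOX libraries, a ratio of 1.70 with no overlap. In such sums fewer cells of a type and less RNA per cell cannot be told apart, and the B cell-like share differs between the groups as given above. With each class's share of nuclei held at its mean over libraries, the log2 ratio was 0.60, against 0.76 as measured. UMIs per nucleus were not held. Adipocyte-like nuclei, lowest in these genes, had a median of 5236 to 8614 UMIs in CKO and 9412 to 10169 in FLOX libraries. Their weight in the sums thus still differed, so 0.60 does not separate class makeup from level within classes. Within classes the log2 ratio ran from 0.29 (NK cell-like) to 0.61 (adipocyte-like). Over the whole tissue a nucleus held 16.2, 14.1 and 18.6 ribosomal protein UMIs in CKO and 15.1, 11.6 and 12.8 in FLOX libraries, which overlap. No member passed by edgeR (lowest adjusted p 0.0599, Rpl12), where 0.00518% of all 19310 genes rose and 0.0363% fell. An unadjusted p under 0.05 (edgeR) was reached by 73 of 78 members and by 5456 of the 19310 genes. DESeq2 called 70 members, and the share of all genes it called is not given here. In 75 members all CKO libraries lay above all FLOX libraries, against 25.5% of all genes. Without CKO library 2 edgeR called 57 members, and the share of all genes is not given for that fit either. Rps3, a decoding-site protein, had the largest change, at 57.4, 40.4 and 56.8 CPM in CKO libraries and 28.1, 18.2 and 25.2 CPM in FLOX libraries (log2 change 1.03 ± 0.21, not passed), with Rpl13a (0.99), Rpl12 (0.95) and Rpl8 (0.95) also among the 5 highest. At the other end were Rpl39l (-0.72), Rps27l (-0.04), Rpl3l (-0.02), Rpl41 (0.29) and Rpl10 (0.38). For Rpl3l, the skeletal muscle-like nuclei of CKO library 2 and FLOX library 3 enter these sums.

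Nuclei of like depth gave the same direction. Among adipocyte-like nuclei of 2000 to 4000 UMIs the level averaged 3275 ± 246 CPM in CKO and 2473 ± 497 CPM in FLOX libraries. It averaged 2166 ± 109 CPM in CKO and 1683 ± 199 CPM in FLOX libraries at 4000 to 8000 UMIs, and 1138 ± 62.1 CPM in CKO and 904 ± 73.6 CPM in FLOX libraries at 16000 and above (SD, n = 3 each). The groups did not overlap in any of the 4 adipocyte-like bands or the 3 ASPC-like bands. In macrophage-like nuclei they overlapped at 1000 to 2000 UMIs and not in the other bands. In these 3 classes the mean level was lower in each deeper band, in both groups.

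**Figure D5:**
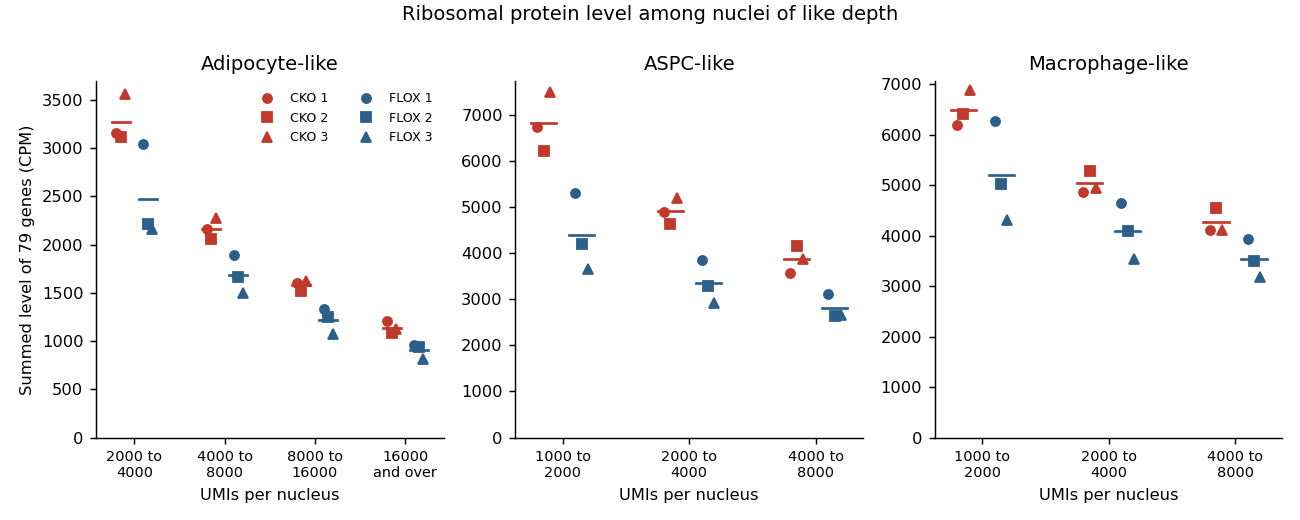
Summed level of the 79 genes (CPM) among nuclei of like UMI count, for 3 classes; points are libraries, bars group means. In the adipocyte-like and ASPC-like panels CKO points lie above FLOX points in every band, and the level falls with depth.

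Genes of ribosome production and translation outside the list are given for adipocyte-like nuclei beside the 1.19% of all genes that rose and the 1.52% that fell there (edgeR). Of 7 ribosomal proteins the pattern leaves out, Fau (0.77; 28.5 ± 3.41 CPM in CKO, 15.9 ± 1.76 CPM in FLOX) and Rpsa (0.83) rose, and both also rose in macrophage-like nuclei (0.57 and 0.56). Of 40 ribosome assembly genes, Gnl3 (0.52) and Npm1 (0.37, adjusted p = 0.04997) rose, nucleolar proteins both, and the list's median was 0.12. Of 15 tested polymerase I genes, Taf1d rose (0.42). Of 35 initiation factors none rose past the threshold and Eif4g3 fell (-0.36), though 30 had values above 0 (median 0.12). Of 18 elongation factors and other TOP mRNAs only Npm1 rose, and 13 were above 0 (median 0.17). Of 18 tested mTORC1 regulators and 15 rescue factors none passed, with 12 and 4 above 0 (medians 0.06 and -0.13). Of 78 mitochondrial ribosomal proteins Mrpl1 fell (-0.39) and none rose past the threshold, while 61 were above 0 (median 0.16). The median of all genes tested was 0.01. All 13 mitochondrially encoded mRNAs were lower in CKO (median -0.43) without passing. In ASPC-like nuclei no gene of these lists passed by edgeR, and in the whole tissue none did.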

How the data were processed

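UMI counts per gene and barcode were deposited by the authors for 6 libraries as filtered matrices. They were made with Cell Ranger 7.1, and the submitters' processing notes name the builds mm10 and GRCh38; the files hold mouse genes. Whether intronic reads or strand were counted is not given in the sources used here. Barcodes with under 500 genes or over 5% mitochondrial UMIs were removed, and the highest-scoring 0.8% per 1000 barcodes of each library were removed as doublets. Nuclei were clustered with scanpy 1.11.5 on 3000 variable genes without the ribosomal protein genes (40 components, 20 neighbours, Leiden resolution 1), and classes were named from fixed marker lists, "X-like" in each case, unless markers of an unrelated list were also raised. UMIs were summed per library and class. The main test was edgeR 4.0.16 (R 4.3.3) quasi-likelihood with TMM scaling, filterByExpr and Benjamini-Hochberg adjustment at 0.05 over all genes tested, with no replicate block; DESeq2 1.42.0 was an alternative. CPM is UMIs per 1000000 UMIs of the same class and library. No test was made for the summed level.

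The tests were first run on simulated counts with independent genes and the same spread set for every gene. That setting is simpler than these libraries, so it does not show how the tests behave on them. Gene spans came from GENCODE vM21 and matched 99.6% of genes. None of the 292 annotated ribosomal protein pseudogenes is a row of the files. Of nuclei in named clusters, 88.1% got the same class from marker scores. Library pairs within groups differed well beyond counting noise (chi-square per degree of freedom 29.6 to 71.7). Genes named in a comparison were all members past the threshold up to 24, otherwise the 12 largest changes in each direction; where none passed, the 5 highest and the 5 lowest were considered, together with a fixed set of roles. The members and lists were chosen with earlier results of these data known. Alternatives were DESeq2, library totals, no filter, a replicate block, a gene-span trend removed, other nucleus filters, classes by marker score, and leaving out each library; single clusters and the unnamed adipocyte cluster were added after seeing the data. Results of some genes that the naming rule covers are not reported here, in text or figures, although they are counted.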

Additional observations from a re-analysis of the deposited data

Results flagged for a closer look

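Rpl10a, of the L1 stalk, was marked for a closer look because its change between the genotypes differed between 2 classes in a direct test. The log2 change was larger in adipocyte-like than in macrophage-like nuclei by 0.94 (edgeR interaction, adjusted p = 0.0229). It was higher in all 3 CKO than in all 3 FLOX libraries of adipocyte-like nuclei, and the groups overlapped in macrophage-like nuclei. The annotation places CT025652.2 over it on the other strand.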

How the results depend on the processing

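Counts are of members that rose. In adipocyte-like nuclei (26) DESeq2 gave 51, the gene-span trend removed 0, classes by marker score 0, nuclei of 1000 to 8000 UMIs 7, clusters 2, 3, 4 and 16 alone 0, 1, 0 and 0, the unnamed cluster counted in 0, and leaving out 1 library 0 to 36. In ASPC-like nuclei (15) DESeq2 gave 32, no filter 56, the span trend removed 5, at most 1% mitochondrial UMIs 26, marker score 4, clusters 7 and 9 alone 3 and 2, and leave-one-out 0 to 12. In macrophage-like nuclei (1) DESeq2 gave 5, no filter 26, the mitochondrial limit 6, members allowed among variable genes 0, marker score 0, clusters 21 and 24 alone 0 and 0, and leave-one-out 0 to 1. When members were allowed, 0 of them were selected as variable, so this setting does not test their influence on the classes. In that clustering 927 nuclei whose best list was the macrophage list stayed unnamed. Over the whole tissue (0) DESeq2 gave 70, no filter 11, adipose classes alone 3, and leave-one-out 0 to 57. From 0, no filter gave 6 in B cell-like, 9 in T cell-like, 20 in endothelial-like and 1 in dendritic-like nuclei, the mitochondrial limit 2, 1 and 1 in the first 3, and leave-one-out 0 to 2, 0 to 4 and 0 to 23. For the difference between adipocyte-like and macrophage-like nuclei (1), leave-one-out gave 0 to 1. The share of all genes that rose is given above for the main fits and the single clusters alone. For the other settings it is not given, so their counts cannot be set against all genes. The cause of these moves was not tested.

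The log2 ratio of the summed level moved for the whole tissue (0.76) to 0.46 in nuclei of 1000 to 8000 UMIs. For adipocyte-like nuclei (0.61) it moved to 0.41 by marker score, 0.43 in nuclei of 1000 to 8000 UMIs, 0.42, 0.41 and 0.43 in clusters 3, 4 and 16 alone, and 0.18 with the unnamed cluster. Leave-one-out ranges were 0.64 to 0.85 for the whole tissue, 0.53 to 0.69 for adipocyte-like, 0.47 to 0.63 for ASPC-like, 0.24 to 0.44 for macrophage-like, 0.11 to 0.47 for B cell-like, 0.29 to 0.54 for T cell-like, 0.35 to 0.82 for endothelial-like, 0.27 to 0.54 for dendritic-like, 0.22 to 0.79 for mural-like and 0.15 to 0.46 for NK cell-like nuclei. No result listed here reversed.

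Correlations of same-numbered deviations ran from -0.16 to 0.28 over the whole tissue and the classes. Neither these values nor the titles settle whether the replicate numbers pair the libraries. With a replicate block the count was 60 over the whole tissue, 6 in adipocyte-like, 1 in ASPC-like, 0 in macrophage-like and 3 in endothelial-like nuclei. The share of all genes called with the block is not given here.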
